A study of Mus musculus with 15 samples.

Results

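Gene expression in the jejunum, the middle section of the small intestine, was set against that in the liver of the same strain, over every gene of the deposited table. The comparison set 3 RNA sequencing libraries of jejunum (numbered 24, 27 and 28 in their titles) against 3 of liver (24, 26 and 27), and the model behind its errors and p-values was fitted to all 15 libraries of the table. Values were FPKM, in which the fragments of a gene are divided by its transcript length and by the library's total of mapped fragments, so that levels can be compared between genes. Records with the same gene_id were added together, which turned 23845 records into 23347 genes. Of these, 12760 genes (54.7%) reached 1 FPKM in at least 3 of the 6 libraries and were tested. All mice were wild type C57BL/6 males aged 2 to 3 months. The labels name no treatment. Livers were taken without the gallbladder, and gut sections were rinsed of their contents, so that the jejunum libraries hold every layer of the wall. The labels do not say whether libraries of a tissue came from separate animals or from pools, and p-values here reflect only the variation among these samples, possibly technical in origin.

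The jejunum digests and absorbs food through enterocytes, whose brush border carries enzymes and transporters. Stem cells in its crypts also give rise to Paneth, goblet, enteroendocrine and tuft cells, and muscle, nerve and immune cells fill the wall. The liver takes up what the gut absorbs, and its hepatocytes make plasma proteins, glucose, urea, ketone bodies and bile acids. Both epithelia arise from the endoderm and share several transcription factors.

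Within each tissue most genes varied little, with a median SD on log2(FPKM + 1) of 0.15 in jejunum and 0.099 in liver. FPKM summed to between 505586 and 541581 in the 6 libraries, and the number of genes at 1 FPKM or more ran from 12306 to 12978 in jejunum and from 10232 to 10314 in liver. The read depth of each library is unknown. Jejunum 24 stood apart. Across genes its correlation was 0.986 with ileum 27 and 0.966 and 0.95 with jejunum 27 and 28, which had 0.986 with each other. The reverse held for ileum 24, at 0.989 and 0.988 with jejunum 27 and 28 against 0.984 and 0.971 with ileum 25 and 27. Groups follow the labels as given, and whether the labels of these libraries are right was not tested. In 74 genes jejunum 24 differed by a log2 of at least 2 from both other jejunum libraries, against 5 genes for jejunum 27, 14 for jejunum 28 and 7 to 14 for the liver libraries. List counts of calls that change without jejunum 24 are given both ways. In what follows, a set of values in FPKM is in the order 24, 27, 28 for jejunum and 24, 26, 27 for liver, and a log2 difference is jejunum minus liver on the log2(FPKM + 1) scale, which shrinks the differences of low values.

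A gene was called where limma's adjusted p (Benjamini-Hochberg over the 12760 genes) was under 0.05 and the log2 difference was 1 or more in either direction. By this rule 4933 genes (38.7% of those tested) were higher in jejunum and 1229 (9.63%) were lower, and a fit to the 6 libraries alone gave 4932 and 1227. The groups of 3 libraries did not overlap in 10959 genes (85.9%), among them 4925 of the higher and 1228 of the lower genes. In the 3 jejunum libraries 2266 genes were at 1 FPKM or more and in every liver library below it, and 448 genes showed the reverse. Such genes passed the filter through 1 tissue alone and had to be higher there. Their number is therefore given beside the counts of a gene list where more than 1 member passed through the same tissue alone. The list counts are a description. Each list count is to be read beside the 38.7% higher and 9.63% lower over all genes. Small and large differences were split unlike each other. Among called genes with a log2 difference of 1 to 2, 3182 were higher and 470 lower, whereas from 7 to 10 there were 70 higher and 109 lower. The median difference over all genes was 0.75, and it became 0.00 when libraries were scaled by the median of ratios and 0.01 after quantile normalization. A gene at 0.75 thus lay at the middle of all genes. Calls were 2595 higher (20.3%) and 2280 lower (17.9%) with median-of-ratios scaling (38.2% in all), and 2357 higher (18.5%) and 2037 lower (16.0%) with quantile normalization. No call turned its direction under either scaling. A turn needed a move from a log2 of 1 or more in either direction to 1 or more in the other. The median moved only from 0.75 to 0.00 or 0.01, so turns were hardly possible and their absence says little. In all, 1982 higher and 1192 lower genes were called under all of these settings. Without jejunum 24 the counts were 4644 higher (36.4%) and 1245 lower (9.76%), or 46.2% in all.

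**Figure D1:**
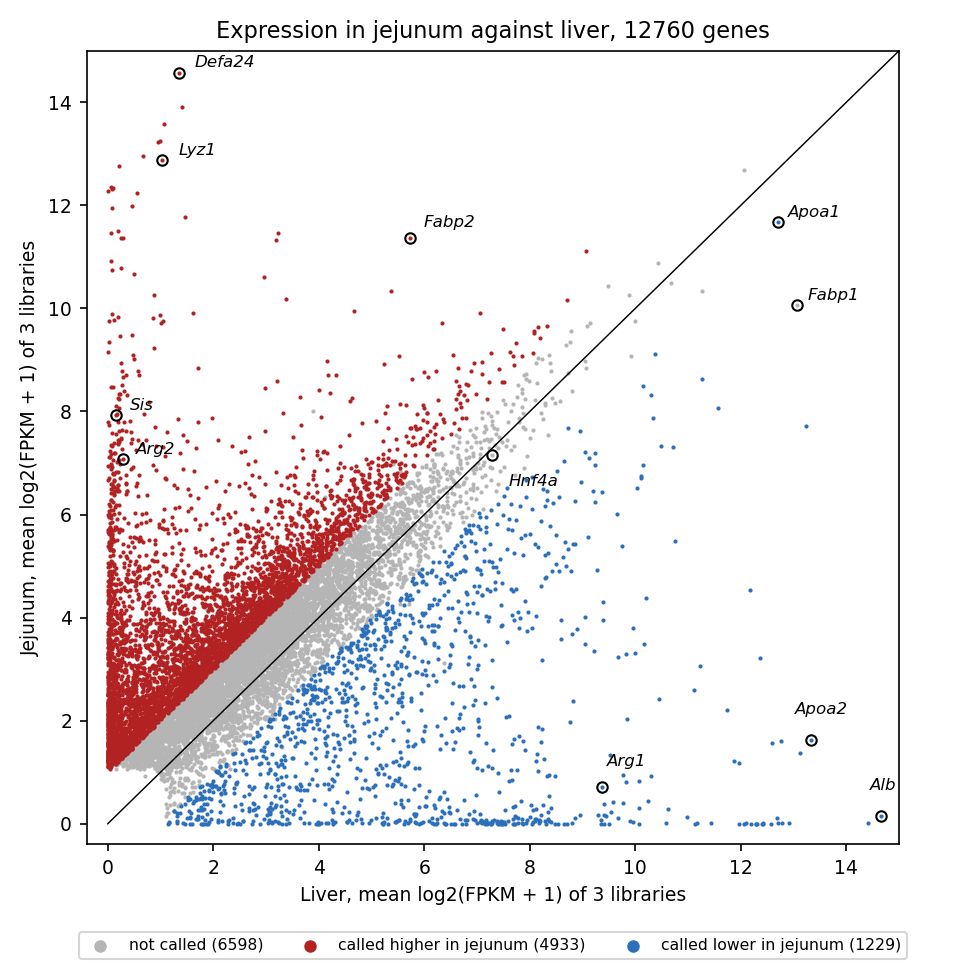
Mean log2(FPKM + 1) of the 3 jejunum libraries against that of the 3 liver libraries for the 12760 genes tested, with the line of equal values. Red genes (4933) were called higher and blue genes (1229) lower in jejunum; Alb and Defa24 lie at opposite corners, and Hnf4a, which was not called, lies near the line.

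**Figure D2:**
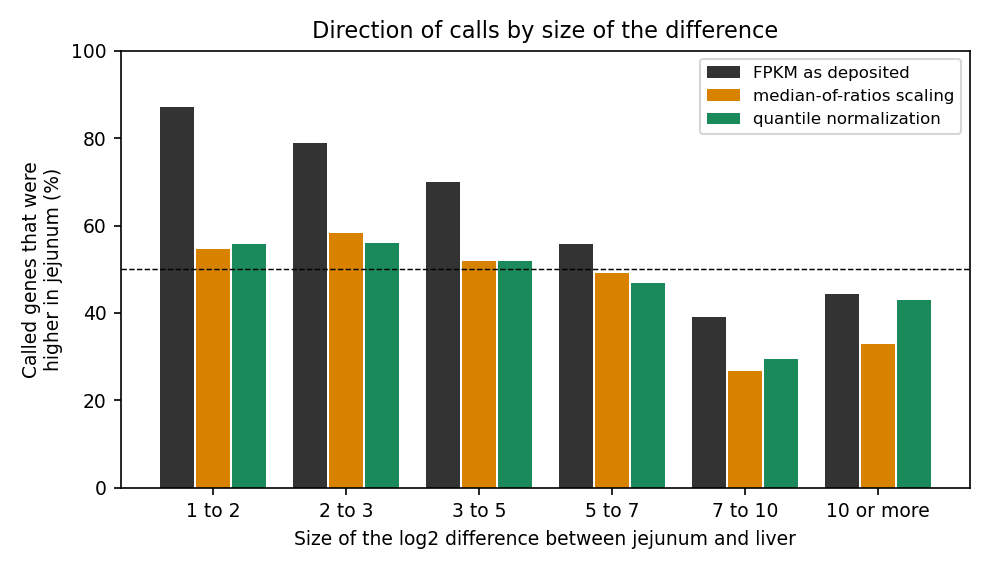
Share of called genes that were higher in jejunum, by the size of the log2 difference, for FPKM as deposited and 2 other scalings. The share fell from 87.1% at a log2 of 1 to 2 to 39.1% at 7 to 10 with FPKM as deposited, and from 54.7% to 26.8% with median-of-ratios scaling.

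Albumin and sucrase-isomaltase are typical products of the liver and of the small intestine. Alb (mm10 chromosome 5, 90460889 to 90476603, plus strand, protein-coding) encodes the main protein of blood plasma. It was at 23279, 29501 and 24897 FPKM in liver and at 0.104, 0.0899 and 0.14 FPKM in jejunum. Alb passed the filter through liver alone, and the log2 difference was -14.50 (SE 0.93, adjusted p = 3.33e-08). Sis (mm10 chromosome 3, 72888560 to 72966866, minus strand, protein-coding) encodes the brush border enzyme that splits sucrose and starch fragments. It was at 124, 315 and 368 FPKM in jejunum and at 0.117, 0 and 0.256 FPKM in liver. Jejunum 24 was the lowest of the jejunum libraries, and the log2 difference was 7.77 (SE 0.34, adjusted p = 1.66e-10).

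The promoters of Alb and Sis are shown because CDX factors and the zinc finger factors of the Gata4 family are known to act on genes of the small intestine, with Alb as the liver gene set beside Sis. Each runs from 250 bases before to 50 bases after the transcript start in RefSeq (GRCm38.p6), 5′ to 3′ on the gene's strand, at chr5:90460620-90460919 (plus) for Alb and chr3:72967814-72968113 (minus) for Sis. Capitals mark matches, on either strand, to either of the motifs searched. For the CDX family the letters were TTTATG. For the zinc finger family they were AGATAA.
Alb: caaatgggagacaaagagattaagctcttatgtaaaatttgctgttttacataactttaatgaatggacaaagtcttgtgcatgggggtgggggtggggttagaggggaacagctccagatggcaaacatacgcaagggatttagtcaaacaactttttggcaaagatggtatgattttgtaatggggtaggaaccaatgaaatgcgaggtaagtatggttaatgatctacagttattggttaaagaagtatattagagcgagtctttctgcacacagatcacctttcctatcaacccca
Sis: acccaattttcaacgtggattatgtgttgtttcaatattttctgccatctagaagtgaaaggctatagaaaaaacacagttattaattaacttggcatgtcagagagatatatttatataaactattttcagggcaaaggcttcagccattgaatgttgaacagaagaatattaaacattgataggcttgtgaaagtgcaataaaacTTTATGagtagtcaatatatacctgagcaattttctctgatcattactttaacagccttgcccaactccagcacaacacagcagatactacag

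RefSeq transcript starts need not equal the gene starts of the deposited table. The Sis promoter held TTTATG at -43 to -38 from the start, and the Alb window held neither motif. AGATAA was in neither window. Of all 27025 promoters in the table, 12.1% held TTTATG and 11.4% AGATAA on either strand. A promoter was found for 9441 of the genes tested, and these shares were 6.78% and 6.91% among them. For genes higher in jejunum by a log2 of 5 or more (177 of 256 with a promoter) 22 and 23 promoters held these motifs (12.4% and 13%). For genes lower by as much (194 of 267) there were 36 and 28 such promoters (18.6% and 14.4%). Both motifs are rich in A and T, base composition was not compared between the sets, and members of a gene family share sequence, so the shares are a description without a test.

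Structural genes of the absorbing surface were higher in jejunum. Of 23 genes of the brush border and epithelial junctions, 22 were higher in jejunum and 0 lower, with a median log2 difference of 6.03, and 13 passed the filter through jejunum alone. Vil1, which bundles the actin core of microvilli, was at 305, 473 and 457 FPKM in jejunum and at 0.199, 0.125 and 0.37 FPKM in liver (8.37, SE 0.18). Epcam, an adhesion molecule of many epithelia, was at 626, 585 and 597 FPKM against 0.72, 0.904 and 0.906 FPKM (8.36, SE 0.13). Both genes passed the filter through jejunum alone, so that their direction was set by the filter. The simple keratins did not move together. Krt19 was at 1222, 799 and 615 FPKM in jejunum and at 0.87, 1.36 and 0.845 FPKM in liver (8.71, SE 0.24, adjusted p = 3.15e-13). Krt18, which hepatocytes use as well, was at 204, 122 and 106 FPKM in jejunum and at 88.6, 194 and 84.8 FPKM in liver (0.28, adjusted p = 0.404). Its groups overlapped, because liver 26 lay above jejunum 27 and 28.

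Digestive enzymes of the surface were higher as well. All 12 tested peptidases of the brush border were higher (median 6.43), 8 of them having passed the filter through jejunum alone. Mep1b, a subunit of the protease meprin, was at 236, 371 and 376 FPKM in jejunum and at most 0.258 FPKM in liver (8.11, SE 0.18), and Naaladl1, another peptidase, was at 580, 324 and 236 FPKM against at most 0.048 FPKM (8.42, SE 0.32). These ran in opposite orders over the jejunum libraries, Mep1b being lowest and Naaladl1 highest in jejunum 24. Dpp4, which trims incretin hormones, differed least of the peptidases, at 66.5, 103 and 101 FPKM against 19.7, 15.2 and 19.1 FPKM (2.25, SE 0.17). Of 7 genes of sugar digestion and uptake 6 were higher, and 4 had passed through jejunum alone. Slc5a1, which takes up glucose with sodium, was at 85.6, 262 and 321 FPKM against at most 0.6 FPKM in liver (7.15, SE 0.40). Slc2a2, the facilitative glucose carrier of both hepatocytes and enterocytes, was not called: it was at 1.56, 46.5 and 57.9 FPKM in jejunum and at 70.8, 20 and 64.6 FPKM in liver (-1.26, adjusted p = 0.347).

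Among 13 carriers of peptides and amino acids 11 were higher and 0 lower (median 4.48), and without jejunum 24 all 13 were higher. Of these carriers 6 passed the filter through jejunum alone. Slc7a9, the light chain of the cystine transporter, was at 96.9, 96 and 93.3 FPKM in jejunum and at most 0.0648 FPKM in liver (6.53, SE 0.12). Its heavy chain Slc3a1 was present in both tissues, at 58.9, 66.4 and 70.4 FPKM against 14.2, 37.2 and 16.9 FPKM (1.60, SE 0.36). Median-of-ratios scaling took away the call of Slc3a1. The carriers that were called only without jejunum 24 were Slc36a1, a proton-coupled amino acid carrier, and Slc16a10, which exports aromatic amino acids. Slc36a1 was at 8.27, 26.5 and 31.3 FPKM in jejunum and at 7.54, 8.05 and 9.5 FPKM in liver (1.11, adjusted p = 0.0557), and without jejunum 24 the difference was 1.67 (adjusted p = 0.00413). For Slc16a10 it was 1.19 without jejunum 24 (adjusted p = 0.000438).

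Fat handling did not separate the tissues in a single direction. Of 18 genes of fat absorption and chylomicron assembly 9 were higher and 5 lower. With median-of-ratios scaling 6 were higher and 8 lower, and without jejunum 24 the counts were 9 and 3. Mogat2, which rebuilds diacylglycerol from absorbed monoacylglycerol, was at 81.9, 161 and 173 FPKM in jejunum and at most 0.232 FPKM in liver (6.84, SE 0.26). The enzymes of the next step were split. Dgat1 was at 155, 304 and 335 FPKM in jejunum and at 9.68, 7.66 and 9.86 FPKM in liver (4.65, SE 0.25). Dgat2 was at 39, 63.9 and 68.2 FPKM in jejunum and at 190, 154 and 157 FPKM in liver (-1.57, SE 0.24). Neither pair of groups overlapped, as held for 85.9% of all genes tested. Fabp2, the intestinal fatty acid binding protein, was higher at 1616, 3521 and 3296 FPKM against 57.5, 48.3 and 51.2 FPKM (5.64, SE 0.42). Fabp1, the liver form, was abundant in both tissues, at 116, 2547 and 4182 FPKM in jejunum and at 10129, 7131 and 8633 FPKM in liver. Every jejunum value of Fabp1 lay below every liver value, but jejunum 24 was far below the other jejunum libraries and the gene was not called (-2.99, SE 1.46, adjusted p = 0.0752). Apoa4, an apolipoprotein of chylomicrons, showed the same low value in jejunum 24, at 181, 2963 and 4046 FPKM against 31.6, 56.1 and 36.8 FPKM (4.97, SE 1.29, adjusted p = 0.00353). Apoa1, the main protein of HDL, was abundant in both tissues, at 1902, 3954 and 4575 FPKM in jejunum and at 6209, 7998 and 5953 FPKM in liver. It was called lower (-1.03, SE 0.41, adjusted p = 0.032), but not without jejunum 24 (-0.65, adjusted p = 0.157), without liver 24 (-1.08, adjusted p = 0.0526), without liver 26 (-0.90, adjusted p = 0.0948) or after quantile normalization (-0.57, adjusted p = 0.227). Its call was also lost with a pseudocount of 0.1 (adjusted p = 0.081) and under the replicate block (-1.05, adjusted p = 0.0661). Apob, the structural protein of chylomicrons and VLDL, was lower in jejunum (-1.62, SE 0.33), while Mttp, which loads it with lipid, was higher (2.07, SE 0.50). Median-of-ratios scaling took away the call of Mttp. Plin2, a coat protein of lipid droplets, was at 34.7, 41 and 51.6 FPKM in jejunum and at 278, 328 and 222 FPKM in liver (-2.67, SE 0.18).

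Of 7 genes of cholesterol absorption and efflux 4 were higher and 3 lower, or 4 and 2 without jejunum 24. Npc1l1, the uptake protein for dietary cholesterol, was at 61.1, 158 and 167 FPKM in jejunum and at most 0.13 FPKM in liver (6.82, SE 0.35). Scarb1, the HDL receptor, was at 6.48, 6.93 and 5.86 FPKM in jejunum and at 61.5, 67.1 and 64.9 FPKM in liver (-3.14, SE 0.15), and Abca1, which loads HDL with cholesterol, was lower too (-1.87, SE 0.17). Of 13 tested genes of iron, calcium and vitamin uptake, 5 of which passed the filter through jejunum alone, 8 were higher and 1 lower. Median-of-ratios scaling made this 6 and 2. Heph, an iron oxidase of enterocytes, was at 28.2, 39.3 and 38.1 FPKM in jejunum and at most 0.323 FPKM in liver (4.81, SE 0.13). The iron exporter Slc40a1 was the lower gene, at 10.9, 3.48 and 2.13 FPKM in jejunum and at 35.2, 36 and 36.4 FPKM in liver (-2.74, SE 0.45). Rbp2, which binds absorbed retinol, was higher at 145, 1894 and 2967 FPKM against 1.09, 0 and 2.77 FPKM (8.88, SE 1.11), again lowest in jejunum 24. The duodenal iron reductase gene Cybrd1 did not pass the filter, at 1.55, 1.38 and 0.747 FPKM in jejunum.

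**Figure D3:**
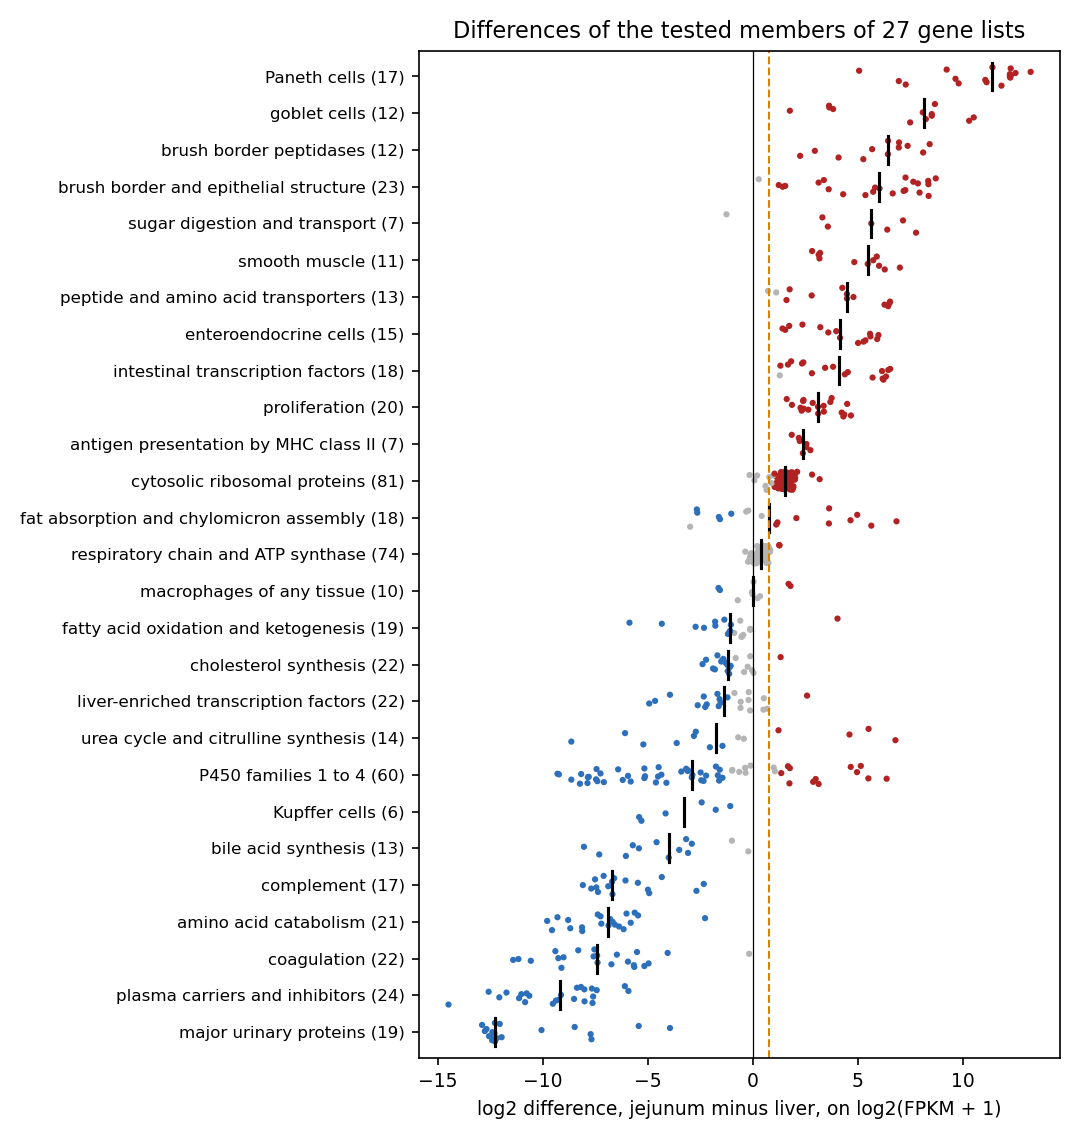
Log2 differences (jejunum minus liver, on log2(FPKM + 1)) of the tested members of 27 gene lists, with the number tested in brackets, the list's median as a black bar and the median of all genes (0.75) as a dashed line. Red and blue points were called higher and lower and grey points were not called; the lists run from Paneth cells (median 11.41) to the major urinary proteins (median -12.28).

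The secretory cells of the crypt gave the most abundant transcripts of the jejunum. The 10 most abundant genes were Defa24, Defa23, Gm15284, Defa17, Defa3, Gm21002, Defa20, Gm7849, Defa22 and Lyz1, most of them alpha-defensin genes, which encode antimicrobial peptides of Paneth cells. The 21 genes of the Paneth cell list held 21.5%, 19.4% and 17.5% of all FPKM in jejunum and at most 0.00326% in liver, and the 17 that passed the filter were higher, 12 of them having passed through jejunum alone. Because alpha-defensin genes are almost the same in sequence, reads may be divided between them in error, and the sum over the list is the safer value. Individual copies ran in opposite orders over the jejunum libraries. Defa20 was at 16675, 7379 and 1064 FPKM, while Defa23 was at 10480, 16294 and 21566 FPKM. Lyz1, the lysozyme of Paneth cells, was at 9289, 8275 and 5534 FPKM in jejunum and at 1.22, 0.61 and 1.39 FPKM in liver (11.84, SE 0.39). Summed over the list, liver held 9.73, 0.711 and 17.1 FPKM. Trace levels of Paneth transcripts were thus highest in liver 27 and lowest in liver 26, and their source was not tested.

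Goblet, enteroendocrine and tuft cells were seen through fewer transcripts. The 12 tested goblet cell genes were higher in jejunum (median 8.16), 9 of them having passed the filter through jejunum alone. All 15 enteroendocrine genes tested passed through jejunum alone, so that their direction was set by the filter. Muc2, the gel-forming mucin, was at 330, 200 and 162 FPKM in jejunum and at 0.0223, 0.717 and 0.0681 FPKM in liver (7.49, SE 0.33). Tff3, a trefoil peptide secreted with mucus, was at 3402, 2622 and 2504 FPKM against 1.98, 60.6 and 3.46 FPKM (8.24, SE 0.82). Liver 26 was the highest liver library for both of these genes. Among the gut hormones, Sst, somatostatin, was at 52.1, 65.4 and 74.2 FPKM, Sct, secretin, at 60.4, 47.1 and 42.9 FPKM and Gip, the glucose-dependent insulinotropic peptide, at 20.8, 92.8 and 125 FPKM in jejunum. Each was at most 0.104 FPKM in liver. Pyy and Ghrl, peptide YY and ghrelin, were listed at 0 in all liver libraries and ran opposite ways in jejunum, at 30.3, 9.31 and 4.38 FPKM for Pyy and 6.07, 18.9 and 26.2 FPKM for Ghrl. Of 10 tested tuft cell genes 8 were higher and 1 lower, and 4 and 2 with quantile normalization. The filter was passed through jejunum alone by 6 of them and through liver alone by 1, the lower gene. Trpm5, the taste-type ion channel, was at 3.37, 3.3 and 3.67 FPKM in jejunum and at most 0.0353 FPKM in liver (2.11, SE 0.12). Sucnr1, the succinate receptor, which tuft cells share with other cells, was the lower gene, at 0.954, 0.915 and 0.656 FPKM in jejunum against 25.4, 9.21 and 24.9 FPKM in liver (-3.38, SE 0.28).

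Genes of dividing cells were higher in jejunum. All 20 proliferation genes were higher in jejunum (median 3.11), also under both other scalings but for 1 gene after quantile normalization, and 10 had passed the filter through jejunum alone. Mki67, a gene of cycling cells, was at 27.9, 24.6 and 21.9 FPKM in jejunum and at 0.216, 0.389 and 0.293 FPKM in liver (4.31, SE 0.15), and Top2a, a topoisomerase of dividing cells, was at 33.4, 34.1 and 32.2 FPKM against 0.232, 0.496 and 0.305 FPKM (4.67, SE 0.11). The libraries of each tissue lay close together for these genes, jejunum 24 included. Of 16 stem cell and Wnt target genes 13 were higher, 12 without jejunum 24 and 7 after quantile normalization. Through jejunum alone 5 of the 16 passed the filter. Olfm4, a marker of crypt base cells, was at 335, 376 and 359 FPKM in jejunum and at most 0.118 FPKM in liver (8.38, SE 0.20). Lgr5, the receptor that defines crypt stem cells, was also detected in liver, at 1.31, 1.2 and 1.35 FPKM against 7.33, 4.52 and 3.3 FPKM in jejunum (1.35, SE 0.21), a call lost under both other scalings. Axin2, a Wnt feedback gene, was at 20.3, 18.7 and 12.2 FPKM against 1.78, 1.18 and 1.8 FPKM (2.78, SE 0.19). In bulk tissue such values cannot tell fewer cells of a type apart from less RNA per cell.

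Transcription factors fell into gut, liver and shared sets. Of 18 tested intestinal factors 17 were higher in jejunum and 0 lower (median 4.10), and 15 had passed the filter through jejunum alone. Cdx2, the homeobox factor that gives the gut its identity, was at 76.1, 76.3 and 66.4 FPKM in jejunum and at 0.0212, 0.0295 and 0 FPKM in liver (6.18, SE 0.19), and Vdr, the vitamin D receptor, was at 92.9, 101 and 104 FPKM against at most 0.0949 FPKM (6.54, SE 0.11). The factor not called was Gata4, a regulator of the upper small intestine, at 4.82, 31.5 and 32.5 FPKM in jejunum and at 7.26, 5.62 and 7.11 FPKM in liver (1.28, adjusted p = 0.0785). Without jejunum 24, which lay below the liver values, Gata4 was called (2.11, adjusted p = 0.00123).

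Of 22 factors known as liver-enriched 12 were lower in jejunum, 1 was higher and 9 were not called; with median-of-ratios scaling 17 were lower, and without jejunum 24, 11. Onecut1 (HNF6) was at 37.5, 19.6 and 36.1 FPKM in liver and at 0, 0 and 0.0227 FPKM in jejunum (-4.94, SE 0.17). Nr0b2 (SHP), a repressor of bile acid synthesis, was at 52.5, 34.8 and 37.6 FPKM in liver and at 0.224, 0.532 and 1.42 FPKM in jejunum (-4.66, SE 0.30). Cebpa was at 157, 123 and 156 FPKM in liver and, at a lower level, still present in jejunum at 25.3, 20.9 and 21.5 FPKM (-2.63, SE 0.10). Hnf4a, which hepatocytes and enterocytes both need, was not called, at 154, 152 and 124 FPKM in jejunum and at 158, 198 and 120 FPKM in liver (-0.13, SE 0.17, adjusted p = 0.492), and its groups overlapped. Its relative Hnf4g was at 60.8, 103 and 116 FPKM in jejunum and at most 0.167 FPKM in liver (6.34, SE 0.22). With median-of-ratios scaling Hnf4a was called lower (-1.03, adjusted p = 4.53e-05). The higher gene among the liver factors was Tbx3, at 18, 25.8 and 23.9 FPKM in jejunum and at 3.42, 2.8 and 2.52 FPKM in liver (2.58, SE 0.22). Of 39 Hox genes listed, 10 passed the filter, each through jejunum alone, so that their direction was set by the filter. They were Hoxa3, Hoxa5, Hoxb2, Hoxb3, Hoxb4, Hoxb5, Hoxb6, Hoxb7, Hoxc4 and Hoxc6, none from the posterior end of a cluster. Those of cluster b were highest in jejunum 24.

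Tight junction claudins went both ways. Of 11 tested claudins 6 were higher and 2 lower. Through jejunum alone 4 claudins passed the filter and through liver alone 2, so that the direction of these was set by the filter. Cldn7 was at 432, 418 and 408 FPKM in jejunum and at 0.459, 0.476 and 0.575 FPKM in liver (8.13, SE 0.13), and Cldn15, which forms sodium pores in the small intestine, was at 167, 256 and 266 FPKM against at most 0.56 FPKM (7.41, SE 0.21). Cldn1 was at 24.9, 27.7 and 24.9 FPKM in liver and at most 0.31 FPKM in jejunum (-4.51, SE 0.11), and Cldn14 was lower as well (-2.99, SE 0.26). Cldn2, a pore of leaky epithelia, was present in both, at 96.7, 26.5 and 26.8 FPKM in jejunum and at 27.3, 23.7 and 23.6 FPKM in liver (0.71, adjusted p = 0.171).

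The other cells of the wall and of the liver were described by their markers. All 11 smooth muscle genes were higher in jejunum (median 5.47), 5 of them having passed the filter through jejunum alone, with Actg2, an actin of visceral muscle, at 216, 112 and 149 FPKM against at most 0.289 FPKM in liver (7.00, SE 0.22). Enteric nerve and glial genes were low: 6 of 13 passed the filter, each through jejunum alone. Vip, a neuropeptide, was at 21.4, 26.3 and 24.1 FPKM against at most 0.0183 FPKM (4.62, SE 0.23). Of 13 matrix and fibroblast genes 11 were higher and 1 lower. Col3a1, a fibrillar collagen, was at 77.5, 54.9 and 39.7 FPKM in jejunum and at 5.11, 5.78 and 3.35 FPKM in liver (3.32, SE 0.29). The lower gene was Fn1, fibronectin, which hepatocytes secrete into plasma, at 20.3, 14.9 and 11.3 FPKM against 144, 159 and 142 FPKM (-3.21, SE 0.30). Fat cell genes were present at low levels in jejunum, where Adipoq, adiponectin, was at 18.8, 13.6 and 14.9 FPKM against at most 0.11 FPKM in liver.

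Of 10 general macrophage genes 2 were higher and 2 lower, and the median was 0.01, below the 0.75 of all genes. C1qa, a complement component made by macrophages, was at 51.5, 50.8 and 35.1 FPKM in jejunum and at 32.7, 39.5 and 34.3 FPKM in liver (0.34, adjusted p = 0.134). Markers of Kupffer cells, the macrophages of the liver sinusoids, were lower in 6 of 6 genes (median -3.30), 4 of which had passed the filter through liver alone. Clec4f was listed at 0 in every jejunum library and stood at 36.4, 41 and 39 FPKM in liver, and Cd5l was at 34.6, 49.1 and 45.9 FPKM in liver against at most 0.052 FPKM in jejunum (-5.42, SE 0.11). Sinusoidal endothelium and stellate cell genes were lower in 5 of 10 and higher in 1, with 8 lower under median-of-ratios scaling or without jejunum 24. Of these 10 genes 3 passed the filter through liver alone. Clec4g, a lectin of the sinusoids, was at 49.5, 40.2 and 45.7 FPKM in liver and at most 0.0592 FPKM in jejunum (-5.45, SE 0.09).

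Lymphocyte genes were low but higher in jejunum, with 13 of 14 tested genes of T and intraepithelial lymphocytes called and 0 lower, or 7 higher and 1 lower after quantile normalization. Of these 14 genes 12 passed the filter through jejunum alone. Gzma, a granzyme of intraepithelial lymphocytes, was at 5.52, 48.6 and 45.8 FPKM in jejunum and at 0.207, 0.852 and 0.351 FPKM in liver (4.10, SE 0.64, adjusted p = 6.91e-05). It was lowest in jejunum 24, whereas Cd79a, part of the B cell receptor, was highest there. Cd79a was at 27.7, 3.92 and 1.31 FPKM in jejunum and at 0.616, 0.874 and 0.815 FPKM in liver (1.97, adjusted p = 0.105). Igj, the joining chain of secreted IgA, ran in another order, at 244, 282 and 110 FPKM against at most 0.437 FPKM in liver (7.27, SE 0.30). Of 5 tested genes of B and plasma cells 3 were higher and 0 lower, and 4 of the 5 passed the filter through jejunum alone. Summed over this list, jejunum held 370, 311 and 122 FPKM. All 7 genes of antigen presentation by MHC class II were higher (median 2.38). H2-Aa was at 257, 257 and 131 FPKM in jejunum and at 24.1, 49.1 and 48.2 FPKM in liver (2.38, SE 0.34).

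Antimicrobial and inflammatory genes of the epithelium were mostly higher, with 12 of 15 higher and 2 lower, of which 9 passed the filter through jejunum alone and 2 through liver alone. Reg3b, a lectin that kills bacteria, was at 2749, 746 and 326 FPKM in jejunum and at most 0.143 FPKM in liver (9.65, SE 0.70), and Reg3g ran in the same order, at 1293, 641 and 335 FPKM. Ccl25, the chemokine that draws lymphocytes to the small intestine, was at 373, 469 and 541 FPKM in jejunum and at 2.06, 2.14 and 2.64 FPKM in liver (7.13, SE 0.15). The lower genes were the serum amyloid genes Saa1 and Saa2, acute-phase proteins that the gut can also make. Saa1 was at 67.4, 176 and 56.9 FPKM in liver and at most 0.415 FPKM in jejunum (-6.24, SE 0.55). Pigr, which carries IgA across epithelia, was substantial in both tissues, at 546, 756 and 789 FPKM in jejunum and at 294, 257 and 330 FPKM in liver (1.23, SE 0.21), and median-of-ratios scaling took away its call.

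Genes of the exocrine pancreas and blood were examined as possible other tissue in the samples. Of 14 pancreatic genes 12 did not pass the filter, and their highest value in jejunum was 12.3 FPKM, for the amylase gene Amy2a5 in jejunum 28, against 0.239 and 0.251 FPKM in the other jejunum libraries. Clps, the cofactor of pancreatic lipase, was at 353, 392 and 356 FPKM in jejunum and at 0.78, 0 and 0 FPKM in liver (8.24, SE 0.37). Clps was thus at a like level in all jejunum libraries, whereas the 12 genes that did not pass the filter were at most 0.27 FPKM in jejunum 24 and 27. Cela1, an elastase that other tissues also make, was at 3.48, 3.57 and 5.35 FPKM in jejunum and at 18.7, 9.58 and 17.5 FPKM in liver (-1.63, SE 0.57, adjusted p = 0.0185), a call lost when liver 24, liver 27, jejunum 24 or jejunum 27 was left out (adjusted p of 0.0503 to 0.059). All 5 red blood cell genes were lower in jejunum, or 4 without jejunum 24, with Alas2, the erythroid heme synthesis enzyme, at 61.8, 72.7 and 56.6 FPKM in liver and at most 0.368 FPKM in jejunum (-5.66, SE 0.28).

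Secreted hepatocyte proteins filled much of the liver transcriptome. The 25 plasma carriers and inhibitors held 14.7%, 19.3% and 15.2% of all FPKM in liver and at most 0.0183% in jejunum, and all 24 tested members were lower in jejunum (median -9.19), 12 of them having passed the filter through liver alone. The 20 major urinary protein genes held 14.7%, 11.3% and 16.7% in liver, and the 19 tested were lower, each having passed the filter through liver alone. These genes are near-identical copies, as Serpina1a to Serpina1e are, so values of single copies are uncertain. Gm2083, a predicted gene whose value adds several records, ranked next to Alb among the most abundant liver genes, at 21937, 18562 and 25275 FPKM. Gc, the vitamin D binding protein, was at 2299, 2221 and 2226 FPKM in liver and listed at 0 in every jejunum library. Ttr, transthyretin, was at 3407, 3395 and 3462 FPKM in liver and at 4.76, 3.52 and 2.8 FPKM in jejunum (-9.53, SE 0.26). Trf, transferrin, was also far lower but present in jejunum, at 28.9, 20.7 and 18.3 FPKM against 4290, 5490 and 4235 FPKM (-7.64, SE 0.31).

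Complement and clotting factors followed the same direction, with 17 of 17 complement genes (median -6.69) and 21 of 22 coagulation genes (median -7.41) lower. Of these, 7 complement and 18 coagulation genes had passed the filter through liver alone. Fgb, the fibrinogen beta chain, was at 2215, 4192 and 2274 FPKM in liver and at 0.0276, 0 and 0 FPKM in jejunum (-11.42, SE 0.35). F2, prothrombin, was at 654, 648 and 582 FPKM in liver and at most 0.139 FPKM in jejunum (-9.12, SE 0.14). Pros1, protein S, was the clotting gene not called, at 14.7, 14.7 and 10.8 FPKM in jejunum and at 13.5, 18.7 and 13.9 FPKM in liver (-0.18, adjusted p = 0.529). Cfb, factor B of the alternative complement pathway, was lower but kept a level of 53.4, 59.5 and 60.2 FPKM in jejunum against 307, 313 and 267 FPKM in liver (-2.34, SE 0.13). Liver 26 was the highest liver library for Fgb, Saa1, Hpx, hemopexin (1671, 2951 and 1643 FPKM), and Serpina1e (7172, 13201 and 7419 FPKM), all of them acute-phase genes or their relatives. Alb (23279, 29501 and 24897 FPKM) and Trf were highest there too, whereas Gc and Ttr were not. The plasma carriers and inhibitors together held 14.7%, 19.3% and 15.2% of FPKM. Acute-phase genes were not compared with other genes as sets, and the cause of this order was not tested. Liver 26 was also the lowest for Cyp4a14, a fatty acid hydroxylase (305, 72.4 and 244 FPKM).

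Of the apolipoproteins typical of liver, 8 of 9 were lower, and 5 had passed the filter through liver alone. Apoa2 of HDL was at 11245, 8710 and 11104 FPKM in liver and at 0.703, 2.61 and 3.84 FPKM in jejunum (-11.70, SE 0.44). Apoe, which directs remnants to receptors, was at 10220, 8785 and 9841 FPKM in liver and kept 264, 221 and 159 FPKM in jejunum (-5.50, SE 0.23). Apoc2, the activator of lipoprotein lipase, was not called: it was at 49.9, 694 and 985 FPKM in jejunum and at 208, 269 and 219 FPKM in liver (0.50, adjusted p = 0.678), with jejunum 24 below and the other jejunum libraries above the liver.

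The gut makes citrulline from glutamine and proline, and the liver turns ammonia into urea. Of 14 genes of these pathways 8 were lower and 4 higher in jejunum. The filter was passed through jejunum alone by 2 of the 14 and through liver alone by 2. The early enzymes were shared but lower: Cps1, which fixes ammonia, was at 133, 154 and 151 FPKM in jejunum and at 555, 719 and 552 FPKM in liver (-2.05, SE 0.19), and Otc, which forms citrulline, was at 64.4, 79.1 and 74.8 FPKM against 205, 194 and 200 FPKM (-1.45, SE 0.13). The later enzymes were further apart. Ass1, which uses citrulline, was at 49.8, 56.4 and 45.9 FPKM in liver and at most 0.707 FPKM in jejunum (-5.22, SE 0.23). Arg1, the arginase of the urea cycle, was at 655, 740 and 595 FPKM in liver and at 0.504, 0.981 and 0.502 FPKM in jejunum (-8.65, SE 0.17). Its mitochondrial relative Arg2 showed the reverse, at 56, 194 and 221 FPKM in jejunum against at most 0.379 FPKM (6.79, SE 0.51). Gls2, the liver-type glutaminase, was at 0.729, 1.46 and 1.42 FPKM in jejunum and at 122, 194 and 134 FPKM in liver (-6.09, SE 0.17). Aldh18a1, which makes the precursor of ornithine and proline from glutamate, was at 44.9, 76.4 and 77.3 FPKM in jejunum and at most 0.678 FPKM in liver (5.51, SE 0.21).

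In carbohydrate metabolism 7 of 19 genes were higher in jejunum and 8 lower, or 7 and 7 without jejunum 24, beside 38.7% higher and 9.63% lower over all genes. Median-of-ratios scaling made this 6 and 11. Of the 19 genes 3 passed the filter through jejunum alone and 2 through liver alone. Fbp1, the fructose-bisphosphatase of gluconeogenesis, was at 387, 401 and 368 FPKM in liver and at 9.95, 16.3 and 18.6 FPKM in jejunum (-4.64, SE 0.21). Fbp2, known as the muscle form, was at 129, 177 and 192 FPKM in jejunum and at most 0.224 FPKM in liver (7.17, SE 0.14). The groups of Fbp1 did not overlap, as held for 85.9% of all genes tested, and Fbp2 passed the filter through jejunum alone. Pck1, the cytosolic PEP carboxykinase, was lower at 32.5, 46.3 and 66.6 FPKM against 613, 742 and 366 FPKM (-3.54, SE 0.58), and Pck2, the mitochondrial one, was higher at 10.1, 9.9 and 9.6 FPKM against 0.959, 1.02 and 0.876 FPKM (2.48, SE 0.11). Hk2, a high-affinity hexokinase, was at 5.55, 4.62 and 3.56 FPKM in jejunum against at most 0.389 FPKM in liver (2.08, SE 0.16). Gys2, the liver glycogen synthase, was at 36.6, 23.9 and 34 FPKM in liver and at most 0.0592 FPKM in jejunum (-4.93, SE 0.12), and Gys1 was higher in jejunum at 4.54, 4.13 and 3.73 FPKM against 0.548, 0.542 and 0.643 FPKM (1.70, SE 0.10). G6pc, which releases free glucose, was lower at 8.28, 14.7 and 34.8 FPKM against 474, 202 and 164 FPKM (-3.86, SE 0.52). Khk, which starts fructose use, was not called, at 74.3, 206 and 268 FPKM in jejunum and at 254, 149 and 238 FPKM in liver (-0.38, adjusted p = 0.405).

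**Figure D4:**
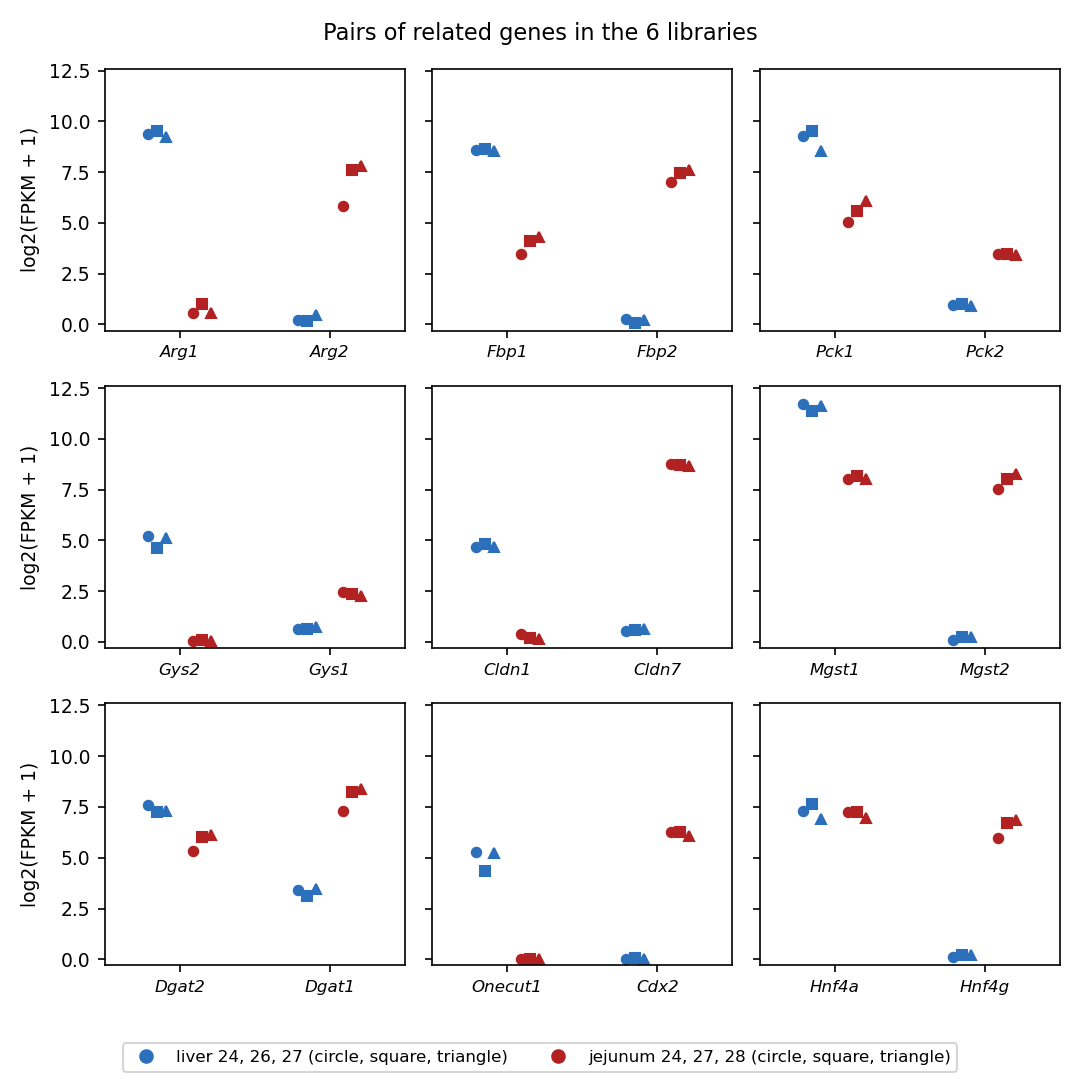
log2(FPKM + 1) of 9 pairs of related genes or transcription factors in each liver (blue) and jejunum (red) library; circles, squares and triangles are the 3 libraries of a tissue. In 8 of the panels the left gene is lower and the right gene higher in jejunum, as for Arg1 (-8.65) and Arg2 (6.79), and in the last Hnf4a (-0.13) was not called and Hnf4g (6.34) higher.

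Genes of amino acid breakdown were lower in jejunum, with 21 of 21 genes lower in jejunum with FPKM as deposited, under both other scalings and without jejunum 24 (median -6.88). Of these genes 15 passed the filter through liver alone. Gnmt, which uses up methyl groups, was at 1149, 1368 and 1118 FPKM in liver and at most 0.39 FPKM in jejunum (-9.80, SE 0.16). Cth, which makes cysteine, was the least different, at 58.2, 44 and 37.3 FPKM in jejunum and at 221, 239 and 219 FPKM in liver (-2.28, SE 0.15). Bile acid synthesis was lower in 11 of 13 genes, 4 of the 13 having passed through liver alone, with Cyp8b1, the sterol 12-hydroxylase, at 191, 132 and 178 FPKM in liver and at most 0.0843 FPKM in jejunum (-7.32, SE 0.11).

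Of 19 genes of fat oxidation and ketone production 11 were lower and 1 higher, with 10 lower without jejunum 24 and 18 with median-of-ratios scaling. Hadha, of mitochondrial beta oxidation, was at 52.5, 65.4 and 71.4 FPKM in jejunum and at 75.6, 63.3 and 66.9 FPKM in liver (-0.13, adjusted p = 0.349). Oxct1, which other tissues use to burn ketone bodies and hepatocytes lack, was the higher gene, at 60.5, 31.4 and 26.8 FPKM in jejunum and at 1.32, 1.68 and 1.03 FPKM in liver (4.03, SE 0.28). Of 22 genes of cholesterol synthesis and its control 15 were lower in jejunum and 1 was higher. Sc5d, a late enzyme, was at 36.4, 42.1 and 39.7 FPKM in jejunum and at 183, 208 and 174 FPKM in liver (-2.23, SE 0.12). The higher gene was Srebf2, the transcription factor that controls the pathway, at 38.3, 27.6 and 23.2 FPKM against 11.2, 11.1 and 10.9 FPKM (1.32, SE 0.18), a call lost under both other scalings.

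Enzymes and carriers that handle foreign compounds, which the study's title names, went both ways. Of 60 tested P450 genes of families 1 to 4, 40 were lower and 12 higher in jejunum, or 39 and 13 without jejunum 24. The filter was passed through liver alone by 23 of them and through jejunum alone by 6. Of 14 glucuronosyltransferases 10 were lower and 1 higher. Of 22 glutathione S-transferases 11 were lower and 5 higher (10 and 6 without jejunum 24), and of 14 carboxylesterases 9 were lower and 2 higher (9 and 3). Sulfotransferases were 2 lower and 3 higher of 6, efflux pumps 5 lower and 4 higher of 12, and carriers of drug and bile acid uptake 7 lower and 4 higher of 14. Through liver alone 3 glucuronosyltransferases, 1 sulfotransferase, 4 carboxylesterases, 2 efflux pumps and 5 uptake carriers passed the filter. Through jejunum alone it was passed by 4 efflux pumps, 3 uptake carriers, 1 glucuronosyltransferase, 1 sulfotransferase and 1 glutathione S-transferase. The direction of all these members was set by the filter. Over all genes 38.7% were higher and 9.63% lower. Apart from the 6 sulfotransferases, none of these families had a larger share of higher genes than that. Within family 4 the fatty acid hydroxylases of subfamily a were all lower, with Cyp4a10 at 236, 85.5 and 237 FPKM in liver and at 0.0473, 1.55 and 1.89 FPKM in jejunum (-6.42, SE 0.45). Members of subfamily f were divided. Cyp4f40 was at 60.9, 44.3 and 36.5 FPKM in jejunum and at most 0.431 FPKM in liver (5.14, SE 0.18), and Cyp4f15 was at 0.829, 1.3 and 1.48 FPKM in jejunum and at 50.3, 43.6 and 50.1 FPKM in liver (-4.49, SE 0.13). Cyp4f14 was listed at 0 in jejunum 28 and liver 26 but at 224 and 349 FPKM in the other jejunum and at 109 and 89.2 FPKM in the other liver libraries, and such isolated zeros can be failed estimates. Mgst1, a microsomal glutathione transferase, was at 259, 285 and 259 FPKM in jejunum and at 3394, 2616 and 3176 FPKM in liver (-3.50, SE 0.13), and its relative Mgst2 was at 181, 262 and 310 FPKM against at most 0.186 FPKM (7.76, SE 0.20). Cyp4a10 and Cyp4f15 were chosen after their values were seen. Genes not called included Ugt2b34, a glucuronosyltransferase at 122, 206 and 230 FPKM in jejunum and 191, 144 and 178 FPKM in liver (0.08, adjusted p = 0.725), and the efflux pump Abcg2 at 60.1, 41.8 and 42.3 FPKM against 33.3, 26 and 30.2 FPKM (0.66, not called). Sequences within these families are alike, so reads may be split between members.

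For general machinery the calls depended on the scaling. Of 74 genes of the respiratory chain and ATP synthase 2 were higher and 0 lower with FPKM as deposited (median 0.40), 0 higher and 7 lower with median-of-ratios scaling (median -0.50) and 5 higher and 0 lower after quantile normalization. They held 2.34%, 2.93% and 3.38% of all FPKM in jejunum and 2.17%, 2.1% and 2.1% in liver. Cytosolic ribosomal protein genes held 3.24%, 2.94% and 3.03% in jejunum and 1.09%, 1.12% and 1.01% in liver, and 73 of 81 were higher with a median of 1.52, or 71 without jejunum 24. With median-of-ratios scaling 9 were higher and 1 lower (median 0.62), and after quantile normalization 56 were higher. Of 16 genes often used as references 4 were higher and 0 lower. Median-of-ratios scaling made this 2 and 5. Actb, beta-actin, was at 792, 761 and 775 FPKM in jejunum and at 142, 268 and 148 FPKM in liver (2.12, SE 0.22), so it was higher in jejunum under each scaling. B2m, beta-2-microglobulin, was at 1040, 1721 and 1642 FPKM against 1525, 1582 and 1785 FPKM (-0.18, adjusted p = 0.365), and was called lower with median-of-ratios scaling. The same scaling also called Hnf4a, Fabp1, Pros1, Khk and Hadha lower. In all, 146 genes were at 100 FPKM or more in each of the 6 libraries. Of these 30 were higher, 12 lower and 104 not called, beside 48.3% called over all genes tested. Asking for 100 FPKM in both tissues leaves out genes that are low in either. The share not called is thus partly set by this choice.

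Jejunum was also compared directly with its neighbours in the same fit, to see which of these values set it apart within the small intestine. The genes were those kept by the filter on jejunum and liver. Genes low in both of these tissues were not tested, whatever their level in duodenum or ileum, so the counts do not cover all genes. Against duodenum, 111 of 12760 genes were higher in jejunum and 130 lower (1.89% in all), and without jejunum 24 the counts were 35 and 27 (0.486%). Against ileum limma called 0 genes and 860 had an unadjusted p under 0.05, or 0 and 1141 without jejunum 24. These groups hold jejunum 24 and ileum 24, which each correlated more closely with a library of the other section than with those of their own, and ileum 24 stays in the group when jejunum 24 is left out. The duodenum calls held 10 of 17 Paneth cell genes, all higher, and 7 of 17 were called without jejunum 24. Among the most abundant jejunum genes, Gm21002, Defa20, Gm7849 and Defa22 were called higher than in duodenum. Defa24, Defa23, Gm15284, Defa17 and Defa3 were not (adjusted p = 0.196 to 0.337). As alpha-defensin copies are almost the same in sequence, the number of copies called is uncertain. Lyz1 was at 2531, 1730 and 1626 FPKM in the duodenum libraries, below every jejunum library (1.97, adjusted p = 0.0117). On the lower side were 8 of 14 carboxylesterases, 9 of 22 glutathione S-transferases and 8 of 60 P450 genes, and without jejunum 24 these counts were 3, 1 and 1. Over all genes, as given above, the lower calls went from 130 to 27.

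Genes of position along the gut differed among the jejunum libraries. Fabp6, the ileal bile acid binding protein (mm10 chromosome 11, 43596040 to 43601562, minus strand, protein-coding), was at 6731, 23.1 and 5.61 FPKM in jejunum and listed at 0 in liver. In ileum 24, 25 and 27 it was at 255, 6597 and 8112 FPKM, lowest in ileum 24. Slc10a2, which takes up bile acids in the ileum and in bile duct cells, was at 37, 0.591 and 0.129 FPKM in jejunum and at 4.98, 21.8 and 4.36 FPKM in liver. It was not called with all libraries (-1.14, adjusted p = 0.443) and was lower without jejunum 24 (-2.75, adjusted p = 0.0402). Lct, lactase, marks the upper small intestine and ran the other way, at 15.5, 192 and 245 FPKM. Rbp2, Apoa4, Fabp1 and Cyp3a11 (34.7, 242 and 457 FPKM) were also lowest in jejunum 24, and Reg3b, Hoxb6 (14.9, 2.08 and 2.36 FPKM) and Cd79a highest. The part of the section from which each library was taken is not given in the labels, and neither this nor an exchanged label was tested.

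**Figure D5:**
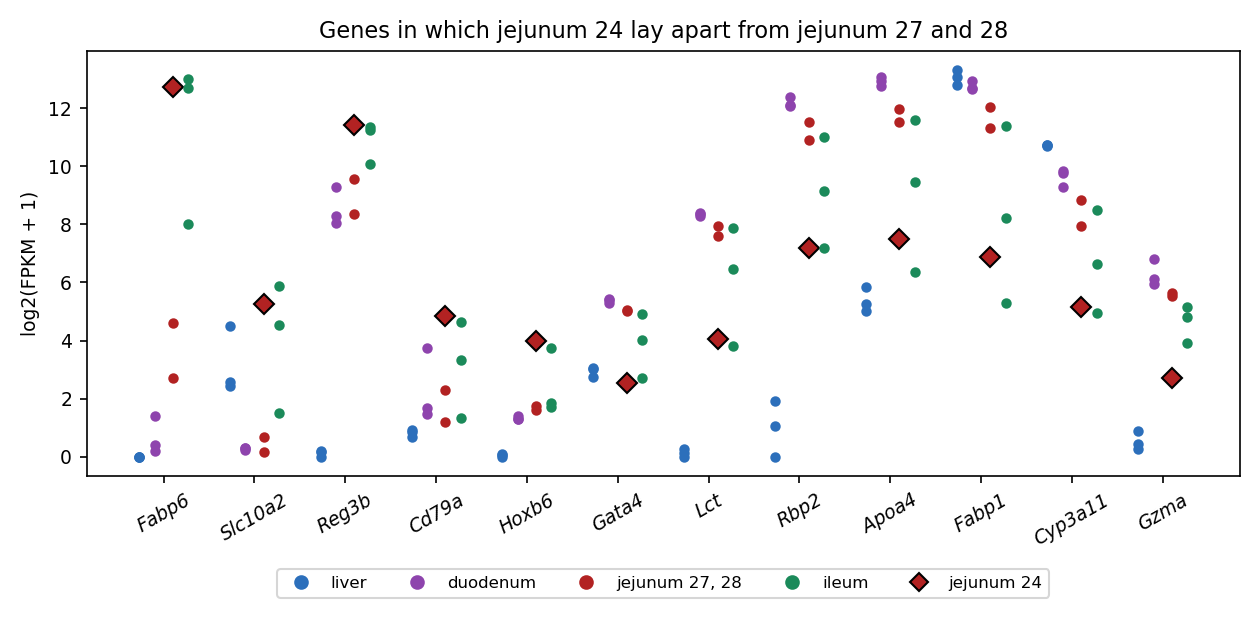
log2(FPKM + 1) of 12 genes in the libraries of liver, duodenum, jejunum and ileum, with jejunum 24 as a diamond. For Fabp6, Slc10a2, Reg3b, Cd79a and Hoxb6 jejunum 24 lies above jejunum 27 and 28, and for Gata4, Lct, Rbp2, Apoa4, Fabp1, Cyp3a11 and Gzma it lies below them.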

How the data were processed

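RNA from whole jejunum and liver was made into libraries with a TruSeq kit and sequenced on a HiSeq, per the labels' protocols. The values are FPKM that the authors deposited in a single table of 15 libraries. The submitters' processing notes name CASAVA, FastQC, TopHat2 2.0.3, Bowtie 0.12.8, SAMtools 0.1.18, Cufflinks 2.0.0 and the mm10 build. FPKM hold no read depth, and values of near-identical genes depend on how reads were divided. Of the 23347 gene_ids, 25 had turned into dates, 18 of them tested, and none is named.

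Records of a gene_id were summed and genes kept at 1 FPKM or more in at least 3 of the 6 libraries. Then limma 3.58.1 (R 4.3.3, with statmod 1.5.0) was fitted to log2(FPKM + 1) of all 15 libraries with 1 mean per tissue, trend and robust settings, and Benjamini-Hochberg adjustment over 12760 genes. Tested on simulated data of these 12760 genes for jejunum against liver, the fit called 96 of 100 genes made different by 1.5 on the log2 scale and 100 of 100 made different by 3, with 2 false calls among 12560. The genes made different were drawn from those with a liver mean above 2 on that scale, with normal noise. Recovery of lower genes, or with a library that stands apart, was not tested. Tables and figures used Python 3.11.15, pandas 2.3.3, numpy 2.4.6 and matplotlib 3.10.9.

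The genes named were the 10 most abundant of each tissue, the largest called differences of each list, any member of a list of up to 26 genes, and genes of position along the gut. The comparison, the members and the lists were chosen with earlier results of these data known. Alternatives were the pseudocount, the filter, 3 scalings, the 6 libraries alone, the block, records kept apart and each library left out. Some genes and 1 planned promoter motif are not reported here.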

Additional observations from a re-analysis of the deposited data

How the results depend on the processing

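Scaling changed the split of calls most. Against 4933 higher and 1229 lower genes, median-of-ratios scaling gave 2595 and 2280, quantile normalization 2357 and 2037, and median-of-ratios scaling without jejunum 24, chosen after seeing the data, 2542 and 2254. The median over all genes went from 0.75 to 0.0, 0.01 and 0.01 under these, and to 0.39 with no filter, where 5072 genes were higher and 1241 lower. A pseudocount of 0.1 gave 5883 higher and 1328 lower, and a filter at 5 FPKM 3397 and 1076 of 8742. Leaving out each library in turn gave 4644 to 5199 higher and 1210 to 1245 lower genes and medians of 0.69 to 0.78. With the number in the title as a replicate block 5205 were higher and 1225 lower. Jejunum and liver share only numbers 24 and 27. Deviations of same-numbered libraries from their tissue means had correlations of 0.014 and -0.013 across genes. Different tissues of an animal need not deviate together, so these values cannot tell whether equal numbers mark the same animal. The labels do not say, and the numbers were not taken to pair samples.

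Genes named in the text that changed sign were not called with the libraries as deposited, except Hoxa3; the cause was not tested. The log2 difference changed sign under median-of-ratios scaling for Abcg2 (-0.23), Apoc2 (-0.41), C1qa (-0.54), Cldn2 (-0.17), Krt18 (-0.62), Slc16a10 (-0.15) and Ugt2b34 (-0.83). It did so under quantile normalization for B2m (0.38), Hnf4a (0.01) and Hoxa3 (-0.00). Under the replicate block it did so for Hnf4a (0.14), Pros1 (0.15), Slc10a2 (0.01) and Ugt2b34 (-0.13). With median-of-ratios scaling and without jejunum 24 it did so for Abcg2 (-0.34), C1qa (-0.58), Cldn2 (-0.72), Cyp4f14 (-0.77), Krt18 (-0.84) and Ugt2b34 (-0.49). Leaving out 1 library turned Apoc2 (-0.30 to 1.84), B2m (-0.32 to 0.05), Cyp4f14 (-1.22 to 3.70), Hnf4a (-0.31 to 0.04), Khk (-0.74 to 0.17), Slc2a2 (-2.07 to 0.19) and Ugt2b34 (-0.10 to 0.35), given as the range over the 6 fits. Cd79a was called without jejunum 28 (2.75, adjusted p = 0.0391), as was Fabp1 (-3.97, adjusted p = 0.0349), and Hoxb4 was not called without jejunum 24 (0.90, adjusted p = 0.0124). Cela1 was not called without liver 24, liver 27, jejunum 24 or jejunum 27, at -1.54, adjusted p = 0.052 without jejunum 24. Over 153 named genes and 16 settings, 39 results lost their call, 16 gained one and 32 changed sign. Read depth is not known from FPKM, so no interval from counting could be given for low values.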
